A study of Mus musculus with 6 samples.

Results

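Mitochondrial ribosomal protein genes were examined in bulk RNA sequencing counts of WT and KIKO mouse cerebellum. The genes were all protein-coding mouse genes of the count table whose symbol begins with *Mrpl* or *Mrps*, with each Ensembl identifier matched to its symbol and pseudogenes left out. This gave 78 genes of the 31053 in the table. The labels name the cerebellum and the genotype of each sample. The study describes KIKO (knock-in knock-out) mice as a model of Friedreich ataxia and compared them with WT littermates on a C57BL/6 background. The study also describes sorting of CD45+/CD11b+ cells from cerebellum at 6 mo of age, whereas the labels mention neither sorting, age nor sex. Libraries of 2 WT and 3 KIKO samples were analysed. A WT sample numbered 3 in the labels was not analysed here. For its sorted microglia the study gives more mice per group than there are libraries here. The labels do not say that samples of a group came from separate animals. The p-values below therefore measure the spread between these libraries, which may be technical.

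The mitochondrial ribosome sits in the mitochondrial matrix and makes the few proteins that mitochondrial DNA encodes, all of them subunits of the respiratory chain and of ATP synthase. Its RNAs are transcribed from mitochondrial DNA, but each of its proteins is encoded in the nucleus, made in the cytosol and imported. The large subunit joins amino acids and carries the exit tunnel for the nascent chain, and the small subunit binds the mRNA and decodes it. Many of these proteins have a counterpart in bacterial ribosomes, and others are found only in mitochondria.

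Of the 78 genes, 51 encode proteins of the large subunit and 26 proteins of the small subunit. *Mrps30* and *Mrps18a* are named for the small subunit but were counted with the large subunit, where their proteins reside. *Mrps36* encodes a protein now known as a subunit of the 2-oxoglutarate dehydrogenase complex and was placed in neither subunit. A total of 73 genes had enough counts to be tested (edgeR's filterByExpr with a minimum count of 10), 50 of the large and 23 of the small subunit. Their level was low at this depth. The total per library lay between 1013107 and 1351339 counts, 3 counts corresponded to between 2.28 and 3.04 normalized CPM (counts relative to the TMM-scaled library size, on a common scale), and this floor covers counting error only. The mean level of the 73 genes had a median of 25.2 normalized CPM and ranged from 6.13 to 83.2. The mean count behind it had a median of 28.6 reads per library, for which counting alone gives a coefficient of variation of 18.7%.

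Many fold changes below are given with and without KIKO replicate 2, and fold changes and medians given once may also move without it. This library stood apart from the others. It held the highest level of 23 and the lowest level of 25 of the 73 genes, 65.8% in all, beside 71.0% of all genes tested, where each of the other libraries held the highest or lowest level of 26.03% to 42.5% of the 73. It lay more than 2-fold from the median of the other 4 libraries in 42.5% of the 73 genes, 13 above and 18 below, on the log2(CPM + 1) scale, and in 42.2% of all genes tested. In the other libraries this share was between 10.96% and 17.8%. Across the 73 genes, which share each library and its depth, log2(CPM + 1) of KIKO replicate 2 correlated with the other libraries with Pearson's r from 0.361 to 0.571, whereas pairs of the other libraries had r from 0.632 to 0.793. The biological coefficient of variation over all 10889 genes tested was 0.468, and 0.238 without KIKO replicate 2.

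**Figure D1:**
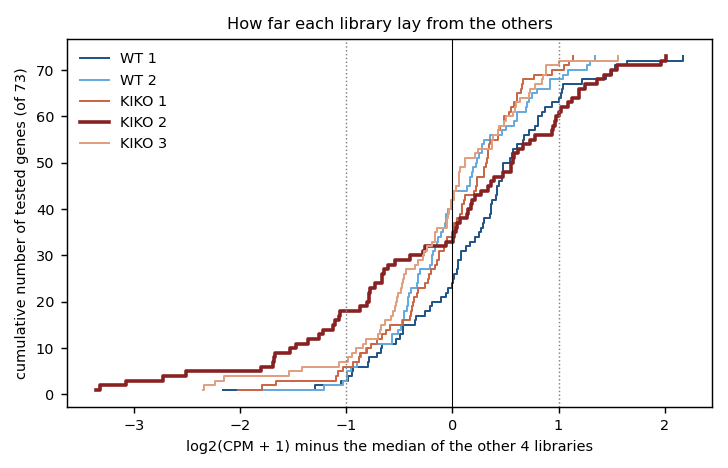
For each of the 5 libraries, the horizontal axis gives log2(CPM + 1) of a gene minus the median of the other 4 libraries, and the vertical axis counts the tested mitochondrial ribosomal protein genes up to that value, out of 73. The line of KIKO replicate 2 is the widest, with 18 genes below −1 and 13 above 1 (dotted lines).

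Summed over all 78 genes, the level of the family was 2144 and 1875 normalized CPM in WT replicates 1 and 2, and 1907, 2032 and 1932 in KIKO replicates 1, 2 and 3. The 3 KIKO values lay between both WT values. WT had a mean of 2009 ± 190.0 (SD, n = 2) and KIKO a mean of 1957 ± 66.3 (SD, n = 3), a log2 ratio of −0.038. The highest library exceeded the lowest 1.14-fold, with a counting error of each sum between 1.95% and 2.29%. In a bulk sample, fewer cells of a type and less RNA per cell cannot be told apart.

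The large subunit gave 1461 and 1193 summed normalized CPM in WT and 1226, 1309.8 and 1212 in KIKO, with a log2 ratio of group means of −0.087. WT replicate 1 was the highest library, WT replicate 2 was the lowest, and the groups overlapped. The small subunit gave 678 and 682 in WT and 681, 723 and 717 in KIKO, with a log2 ratio of 0.056. Here KIKO replicate 1 lay between the WT libraries and the other KIKO libraries above them, within a 1.07-fold range. The WT libraries and KIKO replicate 1 differed by less than the counting error of each sum, 3.27% to 3.83%. The summed level of the large subunit divided by that of the small subunit was 2.15 and 1.75 in WT libraries and 1.80, 1.81 and 1.69 in KIKO, so this ratio was highest in WT replicate 1 and overlapped between the groups.

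The 92 cytosolic ribosomal protein genes, whose proteins form the ribosome of the cytosol, spread more widely. Their sum was 19995 and 24553 normalized CPM in WT and 19528, 39137 and 19959 in KIKO, a 2.004-fold range over the 5 libraries and 1.26-fold without KIKO replicate 2. The sum of the 13 protein genes of mitochondrial DNA, whose mRNAs the mitochondrial ribosome translates and of which 8 passed the filter, was 44956.5 and 78173 in WT and 38372, 84207 and 42436.5 in KIKO, a 2.19-fold range and 2.04-fold without KIKO replicate 2. The highest and lowest sums of the mitochondrial ribosomal protein genes, by comparison, were in WT and differed by the same 1.14-fold with and without KIKO replicate 2. Such a narrow range was not particular to them. The sums of other mitochondrial translation genes, described below, were 388 to 422 for translation factors, 319 to 376 for aminoacyl-tRNA synthetases and 380 to 454 for assembly genes. Single members spread more, with a median range of 2.85-fold over the 71 with counts in every library.

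**Figure D2:**
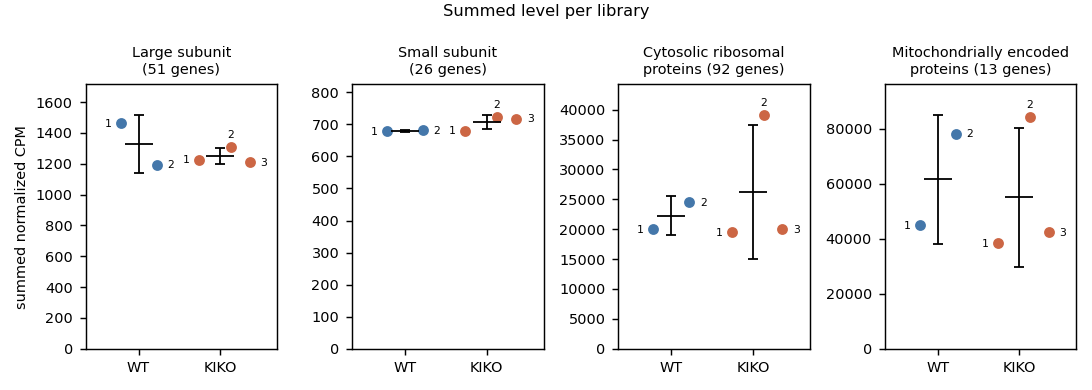
Summed normalized CPM (vertical axis, from 0) of 4 gene groups in the WT and KIKO libraries. Points are libraries with their replicate number, the horizontal bar is the mean and the error bar 1 SD. KIKO replicate 2 lies at 39137 for cytosolic ribosomal proteins, above all other libraries, but at 1309.8 for the large mitochondrial subunit, inside the WT range.

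Each gene was compared between KIKO and WT by edgeR's quasi-likelihood test over all 10889 genes tested, with cut-offs of an absolute log2 fold change over 0.75 and a p below 0.05, taken before adjustment. Of the 73 mitochondrial ribosomal protein genes, 1 was past both thresholds, *Mrpl14*, which was higher in KIKO, and 0 were lower. Among all genes tested, 0.716% were past the thresholds with a higher and 0.487% with a lower level in KIKO, together 1.2%. With Benjamini-Hochberg adjustment, edgeR's quasi-likelihood test and DESeq2's Wald test each left 0 of the 73 genes with an adjusted p under 0.05, and 0% of all genes. Before adjustment 1 of the 73 had a p under 0.05 with either tool. The lowest adjusted p of the family was 0.999985 by edgeR. The smallest p that exact permutation of 2 against 3 libraries allows is 0.1.

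The fitted log2 fold change was above 0 for 32 and below 0 for 41 of the 73 genes. Its median was −0.10, with quartiles at −0.42 and 0.30, beside a median of 0.02 and quartiles at −0.30 and 0.37 over all genes tested. In the large subunit the median was −0.11, with 20 genes fitted higher and 30 lower. In the small subunit it was 0.21, with 12 fitted higher and 11 lower. Divided by origin, the 30 large subunit genes with a bacterial counterpart had a median of −0.08 and the 20 tested ones found only in mitochondria −0.16. *Mrps18a* was counted among the latter, although it is related to bacterial S18. The 15 tested small subunit genes with a bacterial counterpart had a median of 0.22, and the 8 tested ones found only in mitochondria 0.05. Without KIKO replicate 2 the median of the 70 genes then tested was −0.15, beside −0.01 over all genes. The medians of the small subunit and of both its parts then lay below 0 as well, so their place above 0 rested on that library.

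Each of these values had wide limits. The 95% interval, which holds both the counting error and the spread between libraries, of a log2 fold change reached to either side of the estimate by a median of 1.42, with a range from 0.88 to 2.90, and 1 of the 73 intervals lay within a 2-fold change in either direction. For the other 72 genes, a change of more than 2-fold lay inside the interval.

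**Figure D3:**
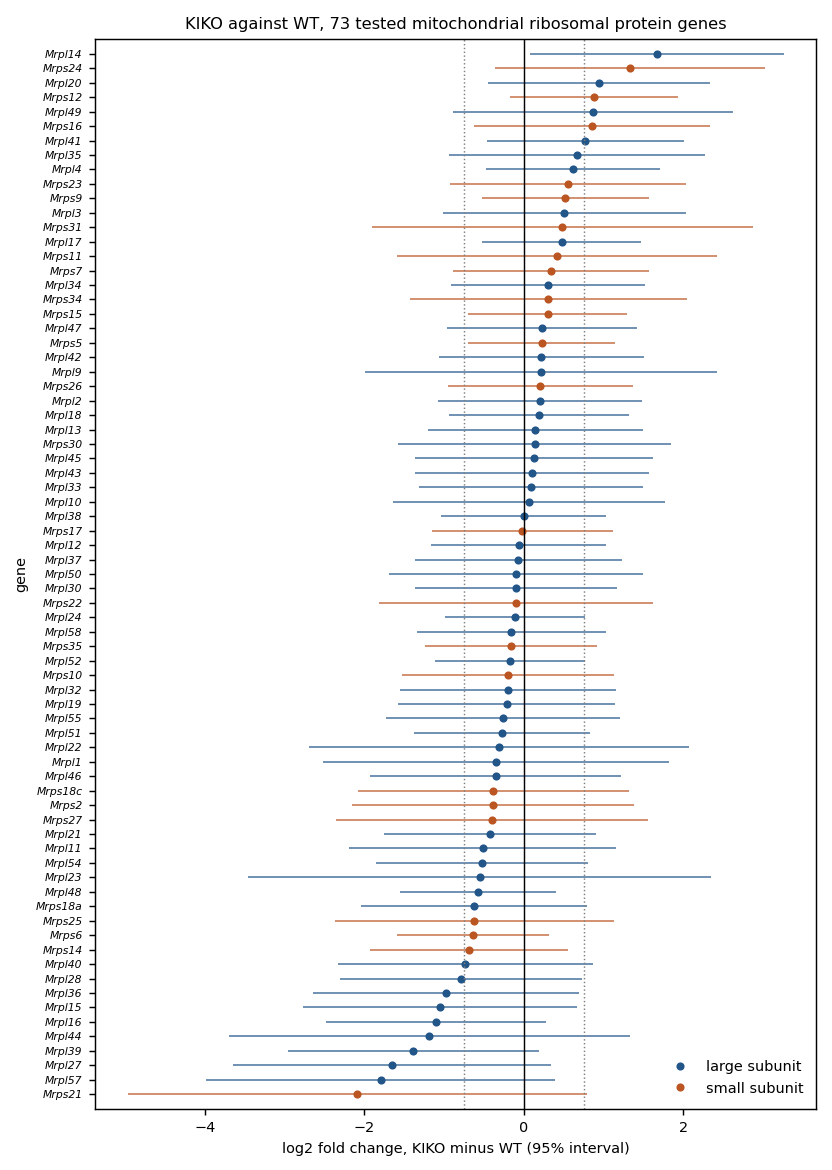
Log2 fold change of KIKO over WT (horizontal axis) with its 95% interval for the 73 tested genes, in order of the fold change, blue for the large and orange for the small subunit. Dotted lines mark the threshold of 0.75 in either direction, and the interval of *Mrpl14*, at the top, runs from 0.08 to 3.26.

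For 15 of the 73 genes (20.5%) the levels of both groups had no overlap, 5 with KIKO higher and 10 with KIKO lower. Over all genes tested, 16.7% had groups that did not overlap, 8.2% with KIKO higher and 8.51% with KIKO lower. The large subunit had 4 such genes with KIKO higher and 8 with KIKO lower, and the small subunit 1 and 2. The 5 with KIKO higher and the 6 with KIKO lower and the smallest p are described below.

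*Mrpl14* (chromosome 17, 45686322 to 45698495) encodes uL14m, a protein of the large subunit at its interface with the small subunit. It had 5.98 and 7.59 normalized CPM in the WT libraries and 14.98, 33.2 and 17.3 in KIKO replicates 1, 2 and 3, which rest on 6 and 10 counts and on 19, 43 and 17 counts. Every KIKO library lay above both WT libraries, and KIKO replicate 2 was the highest. The group means were 6.78 ± 1.14 (SD, n = 2) and 21.8 ± 9.94 (SD, n = 3), and the log2 fold change was 1.67 (standard error 0.70, unadjusted p = 0.042 and adjusted p = 0.999985 in edgeR's quasi-likelihood test). Without KIKO replicate 2 the log2 fold change was 1.22 with an unadjusted p of 0.091, so the gene was no longer past the thresholds. It was also lost without WT replicate 1 (1.501, unadjusted p = 0.155), WT replicate 2 (1.83, unadjusted p = 0.107) or KIKO replicate 3 (1.81, unadjusted p = 0.063). The first exon of *Mrpl14* shares 106 bases with *Tmem63b* on the opposite strand, and whether the reads were counted by strand is not given in the sources used here.

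*Mrps12* (chromosome 7, 28739641 to 28741820) encodes uS12m, a protein of the decoding centre of the small subunit, whose bacterial counterpart is known for mutations that give resistance to streptomycin. Its level was 21.9 and 20.5 normalized CPM in WT and 35.5, 35.5 and 46.7 in KIKO. The WT libraries differed little, and each KIKO library lay above them, with group means of 21.2 ± 1.02 (SD, n = 2) and 39.2 ± 6.44 (SD, n = 3). The log2 fold change was 0.88 (standard error 0.46, unadjusted p = 0.090 in edgeR's quasi-likelihood test), and without KIKO replicate 2 it was 0.94 with an unadjusted p of 0.038, past both thresholds.

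The start sites of *Mrps12* and of *Sars2*, the mitochondrial seryl-tRNA synthetase, lie 172 bases apart on opposite strands. *Sars2* had 7.97 and 17.4 normalized CPM in WT and 22.1, 0 and 13.2 in KIKO, so that KIKO replicate 2 was the lowest library for *Sars2* and lay above both WT libraries for *Mrps12*. The stretch between both genes, and the shorter one upstream of *Mrpl14*, are shown because these are the members with the smallest p and a higher level in KIKO. The sequences are those of RefSeq for GRCm38.p6, limited to bases before the RefSeq start of the gene that lie in no annotated coding or untranslated exon, on the strand of the gene. Capitals mark the core GGGCGG on either strand, which SP family factors bind.
*Mrps12*, chr7:28741822-28741991, minus strand: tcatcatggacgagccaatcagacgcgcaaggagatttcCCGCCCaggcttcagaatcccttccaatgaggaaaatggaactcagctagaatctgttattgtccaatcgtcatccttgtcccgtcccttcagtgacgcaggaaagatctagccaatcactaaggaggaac
*Mrpl14*, chr17:45686260-45686321, plus strand: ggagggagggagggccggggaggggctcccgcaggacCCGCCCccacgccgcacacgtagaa

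Both stretches held 1 such core. Promoter windows of 300 bases (250 before and 50 after the RefSeq start) were found for 69 of the 78 genes, 75 windows in all, and 4 cores were searched on both strands. GGGCGG was in 39 of the 75 windows (52.0%), beside 62.8% of the windows of all genes tested. CCGGAAG, bound by ETS factors, was in 26 (34.7% beside 16.6%), AAGATGG, from the site of YY1, in 13 (17.3% beside 7.09%), and GCATGCG, from the site of NRF1, a factor known for genes of the respiratory chain, in 8 (10.7% beside 6.10%). A match describes the letters of the window and no binding was measured.

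*Mrpl4*, which encodes uL4m, a protein lining the exit tunnel, had 20.9 and 30.3 normalized CPM in WT and 33.9, 51.0005 and 33.5 in KIKO. *Mrpl49*, a mitochondria-specific protein of the large subunit, had 4.98 and 9.10 in WT and 10.3, 10.8 and 18.3 in KIKO. *Mrpl35*, bL35m, had 7.97 and 8.34 in WT and 14.98, 10.8 and 13.2 in KIKO. The groups did not overlap in any of these genes, and the log2 fold changes of 0.62, 0.87 and 0.66 had unadjusted p-values of 0.230, 0.290 and 0.371 in edgeR's quasi-likelihood test. They were 0.38, 0.96 and 0.78 without KIKO replicate 2.

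**Figure D4:**
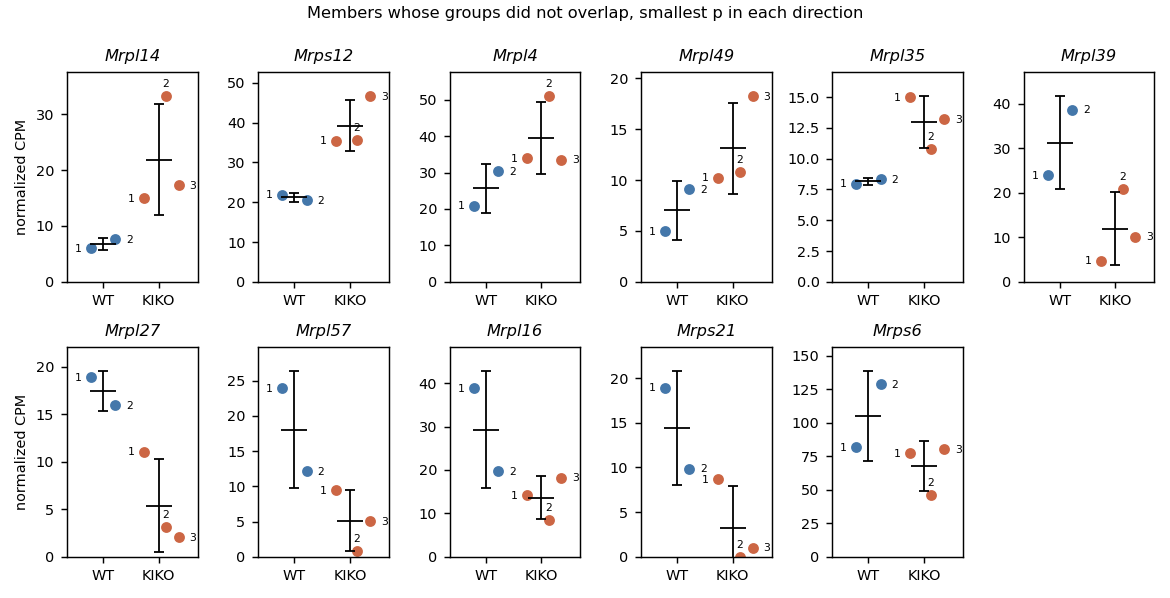
Normalized CPM (vertical axes, from 0, a separate scale per gene) of the 5 genes with KIKO above WT and of the 6 with KIKO below WT and the smallest p. Points are libraries with their replicate number, the horizontal bar is the mean and the error bar 1 SD. In *Mrpl14* KIKO replicate 2 lies at 33.2 and the other KIKO libraries at 14.98 and 17.3, and in *Mrpl39* KIKO replicate 2 lies at 20.9, nearest to WT.

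Among genes with a lower level in KIKO, *Mrpl39* (chromosome 16, 84717576 to 84735742) had the smallest p. It encodes mL39, a large subunit protein without a bacterial counterpart. It had 23.9 and 38.7 normalized CPM in WT and 4.73, 20.9 and 10.1 in KIKO, on 24 and 51 counts and on 6, 27 and 10 counts. KIKO replicate 2 was the KIKO library nearest to WT. The group means were 31.3 ± 10.4 (SD, n = 2) and 11.9 ± 8.21 (SD, n = 3), and the log2 fold change was −1.38 (standard error 0.69, unadjusted p = 0.078 in edgeR's quasi-likelihood test). Without KIKO replicate 2 it was −2.11 with an unadjusted p of 0.00116 and an adjusted p of 0.243 (edgeR's quasi-likelihood test with Benjamini-Hochberg adjustment).

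*Mrpl27* (chromosome 11, 94653767 to 94660089) encodes bL27m, whose bacterial counterpart reaches towards the peptidyl transferase centre where peptide bonds form. Its level was 18.9 and 15.9 normalized CPM in WT and 11.04, 3.09 and 2.03 in KIKO. The last 2 KIKO values rest on 4 and 2 counts. The log2 fold change was −1.65 (standard error 0.87, unadjusted p = 0.093 in edgeR's quasi-likelihood test). It was −1.34 without KIKO replicate 2, and −2.69 (unadjusted p = 0.029) without KIKO replicate 1, where it was past both thresholds.

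*Mrpl57*, which encodes the mitochondria-specific protein mL63, had 23.9 and 12.1 normalized CPM in WT and 9.46, 0.773 and 5.07 in KIKO. *Mrpl16*, uL16m, had 38.8 and 19.7 in WT and 14.2, 8.50 and 18.3 in KIKO. *Mrps21*, bS21m of the small subunit, had 18.9 and 9.86 in WT and 8.68, 0 and 1.02 in KIKO. In these genes WT replicate 1 was the highest and KIKO replicate 2 the lowest library, and KIKO replicate 1 or 3 came close to WT replicate 2. The log2 fold changes were −1.79 for *Mrpl57*, −1.10 for *Mrpl16* and −2.09 for *Mrps21*, with unadjusted p-values of 0.096, 0.104 and 0.134 in edgeR's quasi-likelihood test. They became −1.26, −0.84 and −1.46 without KIKO replicate 2. Over each library left out in turn, *Mrpl57* ranged from −2.63 (without KIKO replicate 1) to −1.23 (without WT replicate 1), and *Mrpl16* from −1.52 (without WT replicate 2) to −0.54 (without WT replicate 1). *Mrps21* ranged from −4.68 (without KIKO replicate 1, unadjusted p = 0.016, past both thresholds) to −1.46.

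*Mrps6* encodes bS6m of the small subunit. It had 81.7 and 128.9 normalized CPM in WT and 77.3, 46.4 and 80.2 in KIKO, with a log2 fold change of −0.64 (unadjusted p = 0.162 in edgeR's quasi-likelihood test). It was −0.43 without KIKO replicate 2 and −0.28 without WT replicate 2. WT replicate 1 and KIKO replicate 3 were nearly equal. Of its exon bases, 305 are shared with *Gm49711* and 159 with *Slc5a3*, a myo-inositol transporter, both on the same strand, so its reads are uncertain. The other 4 genes with a lower level in each KIKO library were *Mrpl36*, *Mrpl28*, *Mrps18a* and *Mrpl21*, with log2 fold changes from −0.97 to −0.42 and unadjusted p-values from 0.218 to 0.488. These lay between −0.65 and −0.35 without KIKO replicate 2.

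Without KIKO replicate 2, 4 of the 70 genes then tested were past both thresholds (5.71%), beside 6.45% of all genes. *Mrps12* and *Mrps9*, a protein of the head of the small subunit, were higher in KIKO, and *Mrpl39* and *Mrpl32*, whose protein is cleaved by a mitochondrial AAA protease before it is assembled, were lower. *Mrps9* had 42.8 and 43.2 normalized CPM in WT and 68.6, 37.1 and 80.2 in KIKO, and *Mrpl32* had 39.8 and 34.9 in WT and 18.9, 58.0 and 20.3 in KIKO. In each of these, KIKO replicate 2 lay beyond WT on the side opposite to the other KIKO libraries. The log2 fold changes without it were 0.78 for *Mrps9* and −0.93 for *Mrpl32*, and 0 of the 70 genes had an adjusted p under 0.05.

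The deviation of KIKO replicate 2 was not in one direction. The members named here were chosen after their values were seen, as examples of large deviations. *Mrps11*, a protein of the platform of the small subunit, had 18, 24, 10 and 9 counts in the other libraries and 71 in KIKO replicate 2. *Mrps24*, uS3m, had between 15 and 24 counts in the others and 98 in KIKO replicate 2. *Mrps25*, in turn, had between 53 and 78 counts in the others and 7 in KIKO replicate 2, and *Mrpl15* had between 31 and 63 in the others and 6. *Mrpl23*, a protein at the exit of the tunnel, and *Mrps21* had 0 counts there, and *Mrpl57* had 1. Members of the same ribosome thus lay several-fold above or below the other libraries in KIKO replicate 2, in a share close to that of all genes tested, while the summed level of the family stayed inside the range of the other libraries. The exons of *Mrps11* share 173 bases with those of *Mrpl46* on the opposite strand, which was not high there, with 14 counts in KIKO replicate 2 and 16, 31, 11 and 27 in WT replicates 1 and 2 and KIKO replicates 1 and 3. Across the 73 genes, the deviation of KIKO replicate 2 had an r of −0.12 with log2 transcript length and of 0.06 with the GC content of the transcript. Over 10637 of all genes tested these were −0.19 and 0.097. Both are descriptions over genes that share the library.

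**Figure D5:**
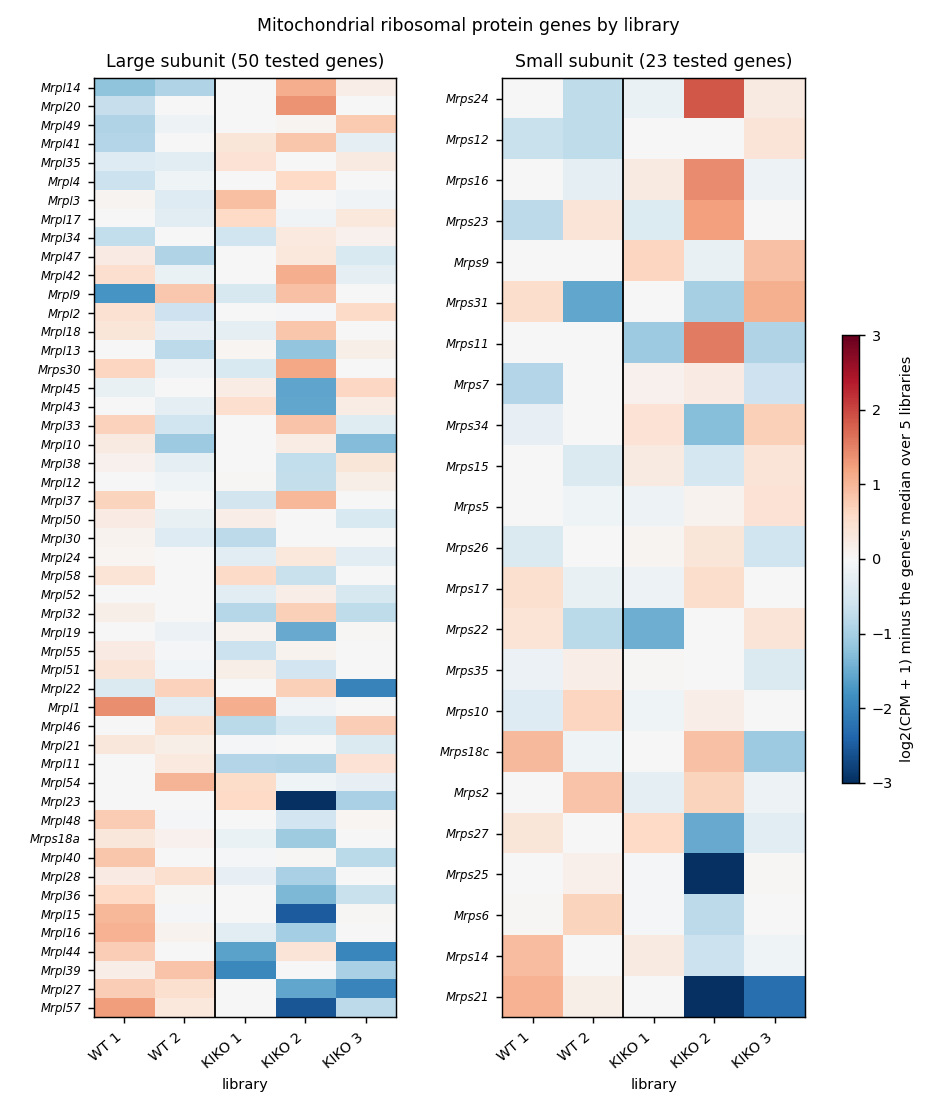
Log2(CPM + 1) of each tested gene minus its median over the 5 libraries (colour, red above and blue below, cut at 3 in size), with genes in order of the log2 fold change of KIKO over WT and the vertical line between WT and KIKO. The column of KIKO replicate 2 holds the strongest colours in both directions, such as *Mrps24* and *Mrps11* in red and *Mrps25*, *Mrps21* and *Mrpl23* in blue.

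Markers of cell types moved with this library as well. The 5 oligodendrocyte markers summed to 17133 normalized CPM in KIKO replicate 2 and between 4146 and 10679 in the others, the 9 microglial markers to 9758 and between 3394 and 5138, and the 6 markers of granule and other neurons to 1944 and between 2401 and 3982. The 4 markers of the choroid plexus, an epithelium that a sort for CD45+/CD11b+ cells is meant to leave out, had counts in every library. Their sum, 6602 to 14081, was nearly all *Ttr* (6550 to 13953), while *Folr1*, *Clic6* and *Kcne2* lay between 5.07 and 88.9. Of the markers of all 8 lists only *Aldh1l1* of astrocytes was at 0, in KIKO replicate 2. The part of the cell makeup in the levels of the ribosomal protein genes was not tested.

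*Mrpl12* encodes bL12m, the stalk protein that recruits translation factors and also binds the mitochondrial RNA polymerase. It had 34.9 and 31.9 normalized CPM in WT and 35.5, 20.9 and 39.6 in KIKO. KIKO replicate 2 was lowest and KIKO replicate 3 highest. The log2 fold change of −0.06 had a 95% interval from −1.16 to 1.04, and it was 0.16 without KIKO replicate 2. *Mrpl58* encodes mL62, a peptidyl-tRNA hydrolase built into the large subunit. It had 41.8 and 31.1 in WT and 47.3, 19.3 and 31.5 in KIKO, with a log2 fold change of −0.15, and 0.12 without KIKO replicate 2, and the groups overlapped.

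The remaining functional sites likewise gave no member past the thresholds. At the exit tunnel, *Mrpl24* and *Mrpl47* (uL29m) had log2 fold changes of −0.11 and 0.23, *Mrpl22* −0.31 and *Mrpl23* −0.55, the last of which was 0.05 without KIKO replicate 2. At the base of the stalk, *Mrpl10* had 0.07 (−0.21 without KIKO replicate 2) and *Mrpl11* −0.51 (−0.29 without it). Near the peptidyl transferase centre, *Mrpl2* had 0.21 and *Mrpl3* 0.51. *Mrpl45*, which anchors the ribosome at the inner membrane, had 28.9 and 34.1 normalized CPM in WT and 40.2, 10.8 and 52.8 in KIKO, a log2 fold change of 0.13 with KIKO libraries on both sides of WT, and 0.54 without KIKO replicate 2. In the head of the small subunit *Mrps7*, *Mrps9* and *Mrps10* had 0.34, 0.52 and −0.19, and *Mrps5*, at the entrance for mRNA, had 0.22. *Mrps5* varied least among the 71 members with counts in every library, with 49.8 and 45.5 normalized CPM in WT and 45.0, 54.1 and 68.0 in KIKO, a 1.51-fold range. Without KIKO replicate 2, *Mrps25* had the narrowest range, 1.17-fold, followed by *Mrpl19* (1.23-fold) and *Mrpl12* (1.24-fold).

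Mammals have 3 genes related to bacterial S18. *Mrps18a* (mL66, in the large subunit) had 21.9 and 19.0 normalized CPM in WT and 14.98, 7.73 and 17.3 in KIKO, with a log2 fold change of −0.62 (unadjusted p = 0.346 in edgeR's quasi-likelihood test) and −0.35 without KIKO replicate 2. *Mrps18c* (bS18m) had 28.9 and 12.9 in WT and 14.2, 27.0 and 6.09 in KIKO, with a log2 fold change of −0.38, −0.99 without KIKO replicate 2, and overlapping groups. *Mrps18b* (mS40) had 4, 0, 4, 0 and 1 counts and did not pass the filter. Neither of the paralogs that could be tested was past the thresholds.

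Per kilobase of exon, the members with the highest mean level were *Mrps6* (54.1 normalized CPM per kilobase), *Mrpl34* (45.7), *Mrpl52* (45.2), *Mrpl41* (39.2) and *Mrps15* (37.2). The median of all members, tested or not, was 7.81. This order assumes that reads were spread along the transcript, as the labelled kit would give, and does not hold as a level if they came from transcript ends only, as in some digital mRNA-seq methods. *Mrpl34* had 17.9 and 30.3 normalized CPM in WT and 19.7, 37.1 and 33.5 in KIKO, a log2 fold change of 0.31, and 0.10 without KIKO replicate 2. *Mrpl52* had 53.8 and 53.9 in WT and 42.6, 61.8 and 38.6 in KIKO, a log2 fold change of −0.17, and −0.41 without KIKO replicate 2. In both the KIKO libraries lay on either side of a WT library. *Mrpl41* had 16.9 and 31.9 in WT and 41.0, 58.0 and 26.4 in KIKO, a log2 fold change of 0.77 (unadjusted p = 0.190 in edgeR's quasi-likelihood test), and 0.45 without KIKO replicate 2. *Mrps15* had 63.8 and 47.0 in WT and 77.3, 44.0 and 83.2 in KIKO, a log2 fold change of 0.30, and 0.54 without KIKO replicate 2. Neighbours in this order differed by less than their spread over libraries.

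The other 4 members that did not pass the filter were *Mrpl53*, *Mrps28*, *Mrps33* and *Mrps36*. *Mrpl53* had 0 counts in every library, and 695 of its 790 exon bases lie in another annotated gene on the same strand. How reads of shared bases were counted is not given in the sources used here, so this 0 sets no limit on its level. *Mrps28* had 1 and 2 counts in WT and 2, 0 and 0 in KIKO, and *Mrps36* had 4 and 0 in WT and 0, 0 and 3 in KIKO. *Mrps33* had 6 and 11 counts in WT and 10, 0 and 8 in KIKO. Its level was thus close between WT and 2 of the KIKO libraries, and KIKO replicate 2 held none.

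Many genes of the family lie close to another gene. Of the 78, 23 (29.5%) had a start site within 1000 bases of that of a protein-coding gene on the opposite strand in a head-to-head arrangement, beside 11.4% of the 10643 protein-coding genes tested. Exon bases were shared with another annotated gene in 28 (35.9%), beside 30.6%. Their transcripts were short, with a median of 1327.5 bases beside 3418. The partners include *Ndufs6* (complex I) for *Mrpl36* and *Fau*, which encodes a cytosolic ribosomal protein, for *Mrpl49*.

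The other genes of mitochondrial translation, from lists chosen by function, gave no gene past both thresholds with all 5 libraries. They were 5 ribosomal proteins with other symbols (5 tested, median log2 fold change 0.13), 20 mitochondrial aminoacyl-tRNA synthetases (15 tested, median 0.12), 15 translation factors (11 tested, median −0.17), 24 genes of ribosome assembly and rRNA modification (14 tested, median 0.03) and 4 of mitochondrial transcription (3 tested, median 1.11). The last list summed to 41.8 and 44.0 normalized CPM in WT and 45.0, 120.5 and 43.6 in KIKO, so that KIKO replicate 2 stood alone above the others. Of the 82 cytosolic ribosomal protein genes and the 8 genes of mitochondrial DNA that were tested, 0 were past the thresholds as well. Their medians were 0.13 and 0.03. Without KIKO replicate 2, *mt-Cytb* went from 0.003 to −0.91 (unadjusted p = 0.014, adjusted p = 0.489 in edgeR's quasi-likelihood test). *mt-Nd5* went from −0.30 to −0.81 (unadjusted p = 0.012, adjusted p = 0.472 in the same test). Both were then past both thresholds, beside 6.45% of all genes. The other genes of mitochondrial DNA tested there were fitted lower as well, from −0.55 to −0.13, and none was past the thresholds. *mt-Cytb* had 9668 and 21330 normalized CPM in WT and 9118, 30035 and 7441 in KIKO. *mt-Nd5* had 1303 and 2827 in WT and 1151, 2667 and 1215 in KIKO. In both genes WT replicate 1 lay much nearer to KIKO replicates 1 and 3 than WT replicate 2 did, so these fold changes rested mainly on WT replicate 2. The groups did not overlap in 1 of the 5 ribosomal proteins with other symbols, 0 of the 15 synthetases, 3 of the 11 translation factors (*Lrpprc* and *Oxa1l* with KIKO higher, *Mtif2* with KIKO lower), 1 of the 14 assembly genes and 1 of the 3 transcription genes, beside 16.7% of all genes tested. The genes of these lists that are named were chosen after their values were seen. *Ptcd3*, whose protein mS39 belongs to the small subunit and helps mRNA to reach it, had 9.96 and 6.07 normalized CPM in WT and 14.98, 13.1 and 25.4 in KIKO, a log2 fold change of 1.15 (unadjusted p = 0.139 in edgeR's quasi-likelihood test), and 1.33 without KIKO replicate 2. *Mettl17*, an assembly factor of the small subunit, had 65.7 and 57.6 in WT and 40.2, 41.0 and 16.2 in KIKO, a log2 fold change of −0.91 (unadjusted p = 0.099). It was −1.10 without KIKO replicate 2 (unadjusted p = 0.010, past both thresholds, adjusted p = 0.450 in edgeR's quasi-likelihood test). *Polrmt*, the mitochondrial RNA polymerase, had 13.9 and 17.4 in WT and 18.9, 52.5 and 30.4 in KIKO, a log2 fold change of 1.11 (unadjusted p = 0.099), and 0.62 without KIKO replicate 2.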

How the data were processed

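RNA from the cerebellum of WT and KIKO mice was sequenced. The authors aligned trimmed reads to mm10 with HISAT2, counted them per gene with featureCounts and deposited whole-number counts, without normalization. They also deposited log2 values normalized with DESeq2, which were not used. The gene annotation, the strand setting and the treatment of reads with several alignments are not given in the sources used here. The labels name a stranded Illumina kit, whereas the study names a digital mRNA-seq service. Columns were matched to samples by name, and 2 columns of per-sample values that match no label were not used. The analysis plan had assumed all labelled WT samples, and 2 WT and 3 KIKO libraries entered the fit.

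Names came from GENCODE M21 on GRCm38 for 31011 of 31053 identifiers. In R 4.3.3, edgeR 4.0.16 kept 10889 genes (filterByExpr, minimum count 10, minimum total 15), which held between 98.6% and 98.9% of the counts. Libraries were scaled by TMM, with factors from 0.971 to 1.06. KIKO was tested against WT with glmQLFTest after glmQLFit (two-sided), and p-values were adjusted over all genes tested by the Benjamini-Hochberg method. Per-library comparisons used log2(CPM + 1). Simulated counts with known changes were used to check the fit. Their spread between libraries was smaller than in these data, so the power of the test here was not checked. The floor of 3 counts covers counting error only, since PCR copies are not independent molecules, while the 95% intervals of fold changes come from the fit and include the spread between libraries.

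The members and lists were chosen with earlier results of these data known. Named were members past the thresholds, in each direction the 6 members of smallest p whose groups did not overlap (5 existed with KIKO higher), the 5 with the highest CPM per kilobase of exon, the *Mrps18* paralogs, members that did not pass the filter, and *Mrpl12*, *Mrps12* and *Mrpl58* for their roles. Alternatives were DESeq2 1.42.0, RLE factors, library size alone, other count filters, the replicate number as a block and leaving out each library. Of the translation factors, 1 of 16 genes asked for was not matched. The gene targeted in KIKO mice is not reported here.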

Additional observations from a re-analysis of the deposited data

How the results depend on the processing

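The number of mitochondrial ribosomal protein genes past both thresholds, 1 of 73, stayed at 1 with DESeq2, RLE factors, library size alone and at least 10 counts in every library, although under the last it was *Mrpl16* (lower) in place of *Mrpl14*, which was then not tested. It was 3 with all genes that had at least 1 count (*Mrpl14*, *Mrps24* and *Mrpl39*), where 2.28% of all genes passed. Leaving out each library gave from 0 to 4, with 0 without WT replicate 1, WT replicate 2 or KIKO replicate 3, 3 without KIKO replicate 1 (*Mrpl14*, *Mrpl27* and *Mrps21*) and 4 without KIKO replicate 2. The share of all genes then lay between 0.472% and 6.45%, with 1.07% without KIKO replicate 1 and 6.45% without KIKO replicate 2. A library left out of WT leaves 1, which is assumed to vary like the KIKO libraries. An adjusted p under 0.05 was reached by 0 members under every alternative run, and over all genes by 5 without KIKO replicate 2 and 1 with at least 1 count. The median log2 fold change of −0.10 became 0.10 over the 46 members with at least 10 counts in every library, and ranged from −0.26 to 0.0052 when a library was left out. The log2 ratio of the summed level, −0.038, became 0.057 over the same 46 members and ranged from −0.146 to 0.053 with a library left out, and it was 0.014 with library size alone. The number of members whose groups did not overlap, 15, was 6 of the 46 (16.4% of all genes under that filter), and 21 to 35 with a library left out (26.9% to 43.8% of all genes).

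With the replicate number as a block, 1 member was past the thresholds, *Mrpl15* (log2 fold change −1.72, unadjusted p = 0.030 in edgeR's quasi-likelihood test), *Mrpl14* had 1.74 and was not, and the count over all genes rose from 131 to 271. Only 2 pairs share a number (r of their deviations 0.170 and 0.225). WT replicate 1 and KIKO replicate 3, of unlike number, had an r of 0.205, and the other unlike pairs lay between −0.225 and −0.170. With 2 WT libraries their deviations mirror each other, so the negative values follow from the positive ones. The block thus rests on the number alone and does not show that the samples were paired.

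The direction of the log2 fold change turned for *Mrpl34* without WT replicate 1 (range over libraries left out from −0.024 to 0.73), for *Mrps18c* with the replicate block (0.024) and without WT replicate 1 (range from −0.99 to 0.28), for *Mrpl12* without KIKO replicate 2 (range from −0.24 to 0.16), and for *Mrpl58* without WT replicate 1 (0.07) or KIKO replicate 2 (range from −0.52 to 0.12). With all libraries, each was under 0.4 in size. The cause was not tested. The 95% intervals reached a median of 1.42 to either side on the log2 scale, with a counting coefficient of variation of 18.7% at the median and a biological one of 0.468 over all genes, 0.238 without KIKO replicate 2.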
